A study of Rattus norvegicus with 12 samples.

Results

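The proteasome genes of the rat kidney were followed through injury by L-NAME and recovery from it. They were chosen by symbol: every gene whose symbol begins with Psma, Psmb, Psmc, Psmd, Psme, Psmf or Psmg was taken, without the interferon-inducible catalytic subunits Psmb8, Psmb9 and Psmb10. This gave 45 of the 18166 genes measured. Of these, 40 encode subunits, activators, an inhibitor or assembly chaperones of the proteasome. The rule also took in 2 proteins that bind a subunit (Psmc3ip and Psme3ip1) and 3 copies of subunit genes (the pseudogenes Psma6-ps1 and Psmd1-ps1, and Psmb3l2). Psma3 and Psme3 were measured only by probesets that also carry other gene symbols, and they were not analysed here, like Psma8, Psmd10 and Psmg3.

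The 12 arrays came from the kidneys of male Sprague Dawley rats in 4 groups of 3 animals, named CTL, W0, W1 and W5. Injury was produced by L-NAME, an inhibitor of nitric oxide synthases, at a daily dose of 15 mg/kg, together with 6 g/L NaCl in the drinking water, until urinary protein passed 1 g per mmol of creatinine. W0 rats were killed at that point, W1 and W5 rats 1 and 5 weeks after L-NAME was stopped, and age-matched CTL rats received no L-NAME. Whether CTL rats drank NaCl is not given in the sources used here. RNA was taken from a piece of whole kidney, so a value averages all cell types of the organ, and fewer cells of a type cannot be told apart from less RNA per cell.

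The proteasome is the protease that degrades proteins tagged with ubiquitin. Its core particle (20S) is a barrel of alpha and beta rings, and the beta subunits Psmb5, Psmb6 and Psmb7 carry the active sites. The regulatory particle (19S) caps the barrel: its ATPase ring (Psmc genes) unfolds the substrate, its other base subunits and its lid (Psmd genes) recognise ubiquitin and remove it. Alternative caps are the activators PA28, made of Psme1 and Psme2, and PA200, encoded by Psme4. In cells exposed to interferon, Psmb8, Psmb9 and Psmb10 replace Psmb5, Psmb6 and Psmb7 to form the immunoproteasome. In mammalian cells in culture, loss of proteasome activity raises the transcription of most subunit genes together through NRF1, the product of Nfe2l1, which binds antioxidant response elements in their promoters. The kidney filters and takes up protein at a high rate, and the groups allow the subunit mRNAs to be compared before, at and after peak proteinuria.

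The letters of such elements were looked for in the promoters of the members, because many subunit promoters are known to carry them. A RefSeq promoter (build GRCr8) was at hand for 37 of the 45 members, and the 250 bases before the start that this promoter table uses were searched on both strands. The core of the antioxidant response element, TGACNNNGC, was present in 6 of 37 members (16.2%), against 10.1% of all 33469 promoters of that length and 11.3% of those of measured genes. CCAAT, the core bound by NF-Y, was present in 17 (45.9%), against 34.0% of all promoters. The repeat of interferon response elements, 2 copies of GAAA separated by 2 bases, was searched for after the expression values were seen. It was present in 4 members (10.8%), Psma4, Psmb3, Psmd7 and Psme2, against 3.41% of all promoters. Among the immune subunits Psmb10 had it, and Psmb8 and Psmb9 did not. Psma4, Psmb3 and Psmd7 differed from CTL in W0 by -0.09, -0.11 and 0.06, none past the test used below. A match is a description only. Stretches with the first motif in capitals (in Psme4 it is on the opposite strand, so the capitals are its reverse complement) are shown for the catalytic subunit Psmb5 and for Psmb2, Psmd1 and Psme4, and stretches with the GAAA repeat in capitals for the activator Psme2, a partner of the immunoproteasome, and for Psmb10. The full gene span that RefSeq gives for Psme2 begins farther upstream than the start used here, so its stretch, like the matches in Psmb6 and Psmd9, which are not shown, overlaps the gene span. The promoter of Psmd8, the member with the largest difference between W0 and CTL, holds none of the 3 motifs in the 150 bases before its start and is given without capitals. All are from RefSeq and run 5′ to 3′ along the gene's strand.
Psmb5, chr15:32047421-32047449, minus strand: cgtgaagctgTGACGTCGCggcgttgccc
Psmb2, chr5:144254980-144255008, plus strand: cccgcgccaaTGACCGGGCggtcgcatat
Psmd1, chr9:94157796-94157824, plus strand: accagatctaTGACCTCGCgagaattata
Psme4, chr14:108706578-108706606, plus strand: ggagaaagccGCTGGGTCAcctcctcgcc
Psme2, chr15:33052785-33052814, minus strand: cctggagagtGAAAGCGAAAgctggggctg
Psmb10, chr19:50743293-50743375, minus strand: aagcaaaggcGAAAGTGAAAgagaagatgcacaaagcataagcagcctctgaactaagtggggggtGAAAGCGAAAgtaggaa
Psmd8, chr1:93608690-93608839, minus strand: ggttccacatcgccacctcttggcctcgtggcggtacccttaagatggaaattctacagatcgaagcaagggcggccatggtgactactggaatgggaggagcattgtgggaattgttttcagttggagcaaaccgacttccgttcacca

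The values are log2 levels after RMA normalization by the authors, and their precision is limited by 3 arrays per group. Array medians lay between 5.75 and 5.92. W1 replicate 1 stood apart in level, with 69.9% of all genes above their own mean over the arrays, and W0 replicate 1 was the lowest of the 12 arrays for 14.6% of genes, the highest share. The kidney label was borne out by its markers: the level of the tubular gene Umod was 10.7 to 11.7 over the 12 arrays. Part of the lists of cell composition markers moved with the groups. At W0, 2 of 8 markers of thick ascending limb and distal tubule, 1 of 6 of collecting duct and 1 of 4 of endothelium differed from CTL. None of the 4 podocyte or the 8 T and B lymphocyte markers did, by the test used below (9.40% of all genes). At W0, 5 of 10 proximal tubule markers were lower than in CTL (802 of all 18166 genes) and 7 of 10 macrophage markers higher (4.99% of all genes). At W5 none of either list passed against CTL, as no gene did (0.00% of all genes). Of the 6 fibroblast markers measured, 5 were higher than in CTL at W0 (4.99% of all genes) and 4 at W1 (405 of all 18166 genes). At W5 none passed, but 5 of 6 had an unadjusted p under 0.05 by limma (7.34% of all genes) and W5 levels all above CTL. Levels of W5 and CTL did not overlap for 14.4% of all genes. Among the 5 was Col3a1, at 7.18 to 7.42 in W5 and 6.17 to 6.43 in CTL. The mean log2 level of the 10 macrophage markers was 6.08 in each CTL array, 6.57 to 7.23 in W0, 6.81 to 7.12 in W1 and 6.21 to 6.31 in W5. The part of cell composition in the levels of the proteasome genes was not tested.

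At the peak of renal damage the proteasome genes stayed close to their CTL levels. Of the 45 members 1, the lid subunit Psmd8, was higher in W0 than in CTL and none was lower (limma over all genes, Benjamini-Hochberg adjusted p under 0.05). Over all 18166 genes 9.40% passed this test, 4.99% on the higher side. The median log2 difference of the members between W0 and CTL was 0.01 (all genes -0.01), with 24 members above 0 and 21 below it. The differences ran from -0.38 for Psmc3ip to 0.53 for Psmd8. The levels of the 3 W0 and the 3 CTL arrays did not overlap for 3 of the 45 members, against 26.5% of all genes. Without the copies and the binding proteins the median of the other 40 genes was 0.02, with the same gene passing. The 95% interval of limma lay within a 2-fold change in either direction for all 45 members (92.4% of all genes). It lay within 1.5-fold for 41 (91.1%, against 66.9% of all genes). These shares depend on the size of a difference as well as on its precision. The median SE was 0.138 for the members and 0.145 for all genes.

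**Figure D1:**
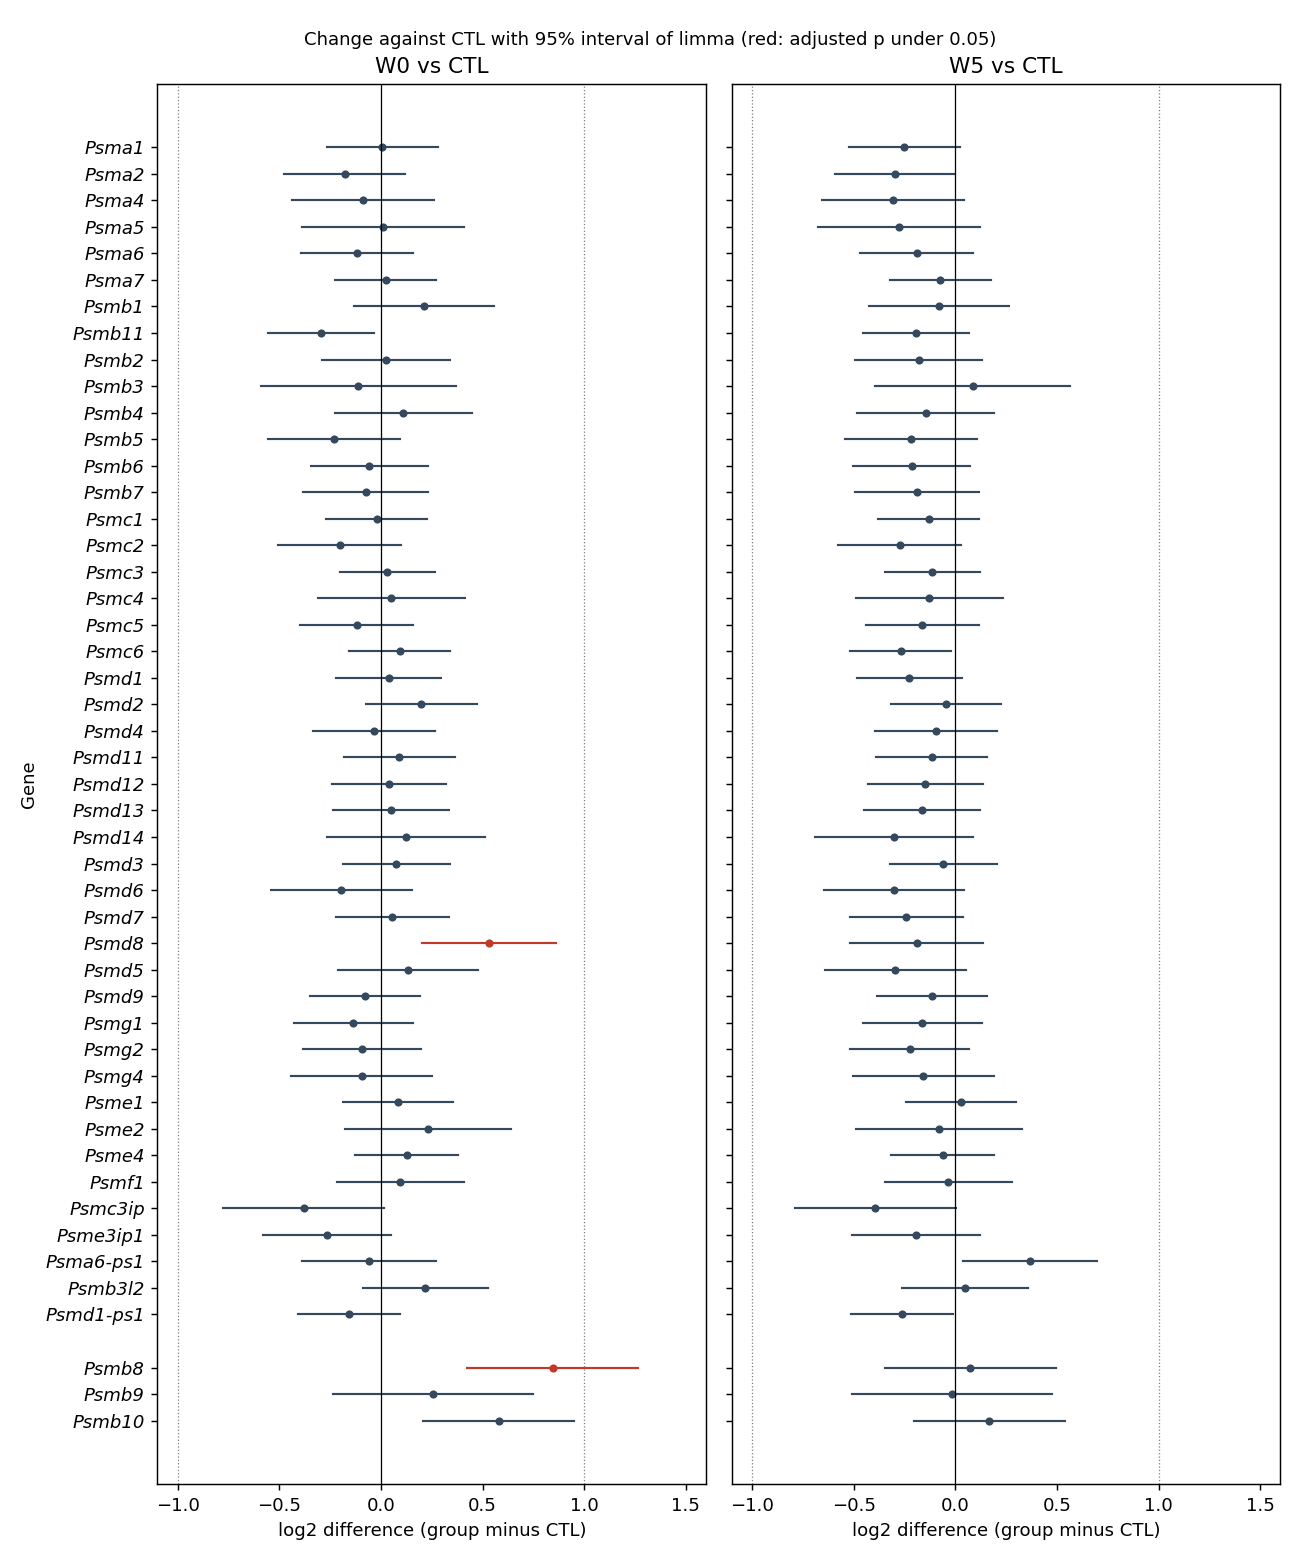
Log2 difference of W0 (left) and W5 (right) against CTL for each of the 45 members, ordered by sub-complex, and below them for the immune subunits; points are limma estimates and bars their 95% intervals, with dotted lines at a 2-fold change. In W0 the points of the members lie on both sides of 0 and Psmd8 alone among them is red (adjusted p under 0.05), and in W5 41 of the 45 points lie below 0 and none is red.

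Psmd8, which encodes a subunit of the 19S lid (chromosome 1, 93601857 to 93608689 in GRCr8), was the exception. Its log2 level was 7.87, 7.83 and 7.92 in the CTL arrays and 8.66, 8.39 and 8.15 in W0. It was 8.35, 7.99 and 7.97 in W1 and 7.53, 7.60 and 7.91 in W5. Every W0 array was above every CTL array, the W1 arrays were also all above CTL, and the W5 arrays lay around and below CTL. The difference of W0 from CTL was 0.53 ± 0.15 (SE, n = 3 per group), or 1.45-fold (adjusted p = 0.0436 by limma). Between W0 and W5 the level fell by 0.72, 1.65-fold (adjusted p = 0.0144 by limma). W1 differed from CTL by 0.23 (adjusted p = 0.518) and W5 by -0.19 (adjusted p = 0.804), both short of the threshold. Psmd8 was also the 1 member that differed over the 4 groups by the moderated F test of limma (F = 8.25, adjusted p = 0.0376), which 6.72% of all genes passed. The call in W0 was near the threshold and passed in 9 of 20 alternative settings. With single arrays left out the difference ran from 0.40 to 0.66 and the adjusted p from 0.0278 to 0.153, and the call was lost without any 1 of the CTL arrays, W0 replicate 1 or 2, W1 replicate 2 or 3, or W5 replicate 2. The difference between W5 and W0 passed in 17 of the 20 settings. RefSeq lists 2 pseudogenes of Psmd8, on chromosomes 3 and 15, and whether the probeset also detects transcripts of these was not tested.

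The genes of the core particle showed no change from CTL in W0 that passed the test. In the alpha ring, which gates the barrel, 6 members had a median difference of -0.04. The highest of them was Psma7, at 11.25, 11.30 and 11.33 in CTL and 11.12, 11.45 and 11.39 in W0, a difference of 0.02 (adjusted p = 0.942 by limma). The lowest was Psma2, at 8.64, 8.91 and 8.96 in CTL and 8.47, 8.86 and 8.64 in W0, a difference of -0.18 (adjusted p = 0.511). For both genes the groups overlapped. In the beta ring 8 members had a median of -0.07, between 0.21 for Psmb1, a structural subunit, and -0.30 for Psmb11. Psmb11 is the catalytic subunit of the thymus proteasome, and its signal on these arrays was low, with a log2 level of 4.54, 4.63 and 4.81 in CTL and 4.28, 4.44 and 4.37 in W0. The W0 arrays were all below CTL, but the adjusted p was 0.162, the second lowest of the members in this comparison.

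For the catalytic subunits Psmb5, Psmb6 and Psmb7 the levels in W0 and CTL overlapped, and the differences did not pass the test. Psmb5, which carries the chymotrypsin-like site, was at 8.48, 8.70 and 8.67 in CTL and at 8.15, 8.63 and 8.37 in W0, a difference of -0.23 ± 0.15 (SE, n = 3 per group; adjusted p = 0.423 by limma). Psmb6, with the caspase-like site, was at 8.97, 9.10 and 9.18 in CTL and at 8.82, 9.27 and 8.98 in W0, a difference of -0.06 (adjusted p = 0.864). Psmb7, with the trypsin-like site, was at 8.89, 9.15 and 9.18 in CTL and at 8.81, 9.18 and 9.003 in W0, a difference of -0.08 (adjusted p = 0.826). In all 3 genes W0 replicate 1 was below every CTL array and W0 replicate 2 lay within or above the CTL range. Psmb6 and Psmb7 were above CTL by 0.04 and 0.02 when W0 replicate 1 was left out. Psmb6 was the only member with a further probeset, which had CTL levels of 8.72, 8.69 and 8.84 and W0 levels of 8.58, 8.81 and 8.63.

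In the regulatory particle, too, Psmd8 was the only gene to pass. The 6 genes of the ATPase ring had a median difference of 0.01 in W0. Psmc6, the highest, was at 8.31, 8.35 and 8.43 in CTL and 8.36, 8.54 and 8.46 in W0 (0.09, adjusted p = 0.724 by limma). Psmc2, the lowest, was at 8.37, 8.46 and 8.41 in CTL and 8.004, 8.48 and 8.15 in W0 (-0.20, adjusted p = 0.455). The groups overlapped for both. Of the other base subunits, the scaffold subunit Psmd2 differed by 0.20 (adjusted p = 0.406) and the ubiquitin receptor Psmd4 by -0.04 (adjusted p = 0.927). In the lid 7 of 8 genes were above 0, with a median of 0.07, and Psmd6 was the only one below it. Psmd6 was at 8.67, 8.59 and 8.96 in CTL and 8.38, 8.70 and 8.56 in W0, a difference of -0.20 (adjusted p = 0.549). Psmd14, the lid enzyme that cuts ubiquitin from substrates, differed by 0.12 (adjusted p = 0.771), with W0 arrays at 8.0025, 8.71 and 8.35.

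None of the factors that assemble or cap the proteasome passed the test in W0. The chaperones of the regulatory particle, Psmd5 and Psmd9, differed from CTL by 0.13 and -0.08, and those of the core, Psmg1, Psmg2 and Psmg4, had a median of -0.10. For the 3 activator genes and the inhibitor Psmf1 the differences were 0.08 to 0.23, with a median of 0.11. Psme2, a subunit of PA28, had the widest range among these genes. It was at 9.59, 9.63 and 9.73 in CTL, at 9.36, 10.16 and 10.12 in W0 and at 10.25, 10.10 and 9.87 in W1. In W5 it was at 9.52, 9.39 and 9.79. All W1 arrays and W0 replicates 2 and 3 were above CTL, and W0 replicate 1 was below it. The difference was 0.23 in W0 (adjusted p = 0.545 by limma) and 0.43 in W1 (adjusted p = 0.287). Without W0 replicate 1 and W1 replicate 1, the arrays that stood apart, the difference of Psme2 between W0 and CTL was 0.49 and passed (adjusted p = 0.0423). This was the 1 of 20 alternative settings in which it passed, and without W0 replicate 1 alone it did not (0.49, adjusted p = 0.0571). Its partner Psme1, which lies on the same chromosome 6602 bases away, was 0.08 higher in W0 and 0.27 higher in W1 (adjusted p = 0.303).

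The members that are not parts of the proteasome did not pass either. Psmc3ip, a recombination protein first found through its binding to Psmc3, was at 6.32, 6.69 and 6.75 in CTL and 5.87, 6.55 and 6.19 in W0, a difference of -0.38 (adjusted p = 0.243 by limma). Psme3ip1 was lower by -0.27 on the log2 scale in W0 (adjusted p = 0.316). The copies Psma6-ps1 and Psmb3l2 had the lowest signals of all members, with means over the arrays of 2.80 and 2.74, inside the lowest 25% of genes, and Psmd1-ps1 had a mean of 5.37. Their differences in W0 were -0.06 for Psma6-ps1, 0.22 for Psmb3l2 and -0.16 for Psmd1-ps1, none past the test.

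At 1 week after L-NAME was stopped no member differed from CTL or from W0 by the limma test. Over all genes 3.02% differed between W1 and CTL and 0.528% between W1 and W0. The median difference of the members in W1 was 0.02 against CTL (all genes 0.03) and 0.00 against W0 (all genes 0.04). At an unadjusted p under 0.05 limma gave 3 members in W1 against CTL, against 16.0% of all genes: Psme1 and Psme2 were above CTL and Psmd1-ps1 was below it, named here after their values were seen.

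At 5 weeks after withdrawal most members lay lower in their group means, by small amounts, though W5 replicate 3 had a member median near CTL. The members share the same arrays and vary together, so the number of members below CTL does not count replicates of the group. In W5 41 of the 45 were below CTL, where 53.9% of all genes were. The median difference was -0.17 (all genes -0.02), and no member passed the limma test, as no gene did (0.00% of all genes). At an unadjusted p under 0.05 limma gave 4 members and 7.34% of all genes. The range was from -0.39 for Psmc3ip to 0.37 for Psma6-ps1. The copies Psma6-ps1, Psmb3l2 and Psmd1-ps1 differed by 0.37, 0.05 and -0.26. Copies and binding proteins aside, the median was below 0 in each sub-complex. It was -0.26 in the alpha ring, -0.18 in the beta ring, -0.15 in the ATPase ring, -0.10 in the other base subunits and -0.18 in the lid. It was -0.21 in the 19S chaperones, -0.16 in the core chaperones and -0.05 among the activators and inhibitor. After a repeated quantile normalization the median of all members was -0.09, with 36 of 45 below 0. Psmc6 was 1 of the 6 members whose W5 and CTL levels did not overlap. Its W5 levels of 7.97, 8.06 and 8.24 were all below the CTL levels, and the difference was -0.27 (adjusted p = 0.672). Against W0 the W5 median was -0.14 with 40 members below 0, where 50.5% of all genes were, and 1 member, Psmd8, passed (5.04% of all genes, 3.17% on the lower side). Against W1 it was -0.21 with 39 below 0, where 60.1% of all genes were, and none passed (0.286% of all genes). These comparisons share the W5 arrays. Groups did not overlap for 12 members between W5 and W1, against 17.7% of all genes, and for 6 members between W5 and CTL, against 14.4%.

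The lower levels in W5 were found in 2 of its 3 arrays. W5 replicate 1 was the lowest of the 12 arrays for 31 of the 45 members, while it was so for 10.7% of all genes. The median difference of the members from their CTL means was -0.34 in W5 replicate 1, -0.17 in replicate 2 and -0.00 in replicate 3. With W5 replicate 1 left out the median of W5 against CTL was -0.08, and with W5 replicate 3 left out it was -0.27. Differences of this kind were seen within other groups as well. In W0 the array medians were -0.18, 0.12 and -0.01, and in CTL they were -0.09, 0.01 and 0.09. W0 replicate 2 was above the members' own means for 40 of 45 and W5 replicate 1 for 4. In all genes the array medians stayed between -0.03 and 0.12, the highest being W1 replicate 1.

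**Figure D2:**
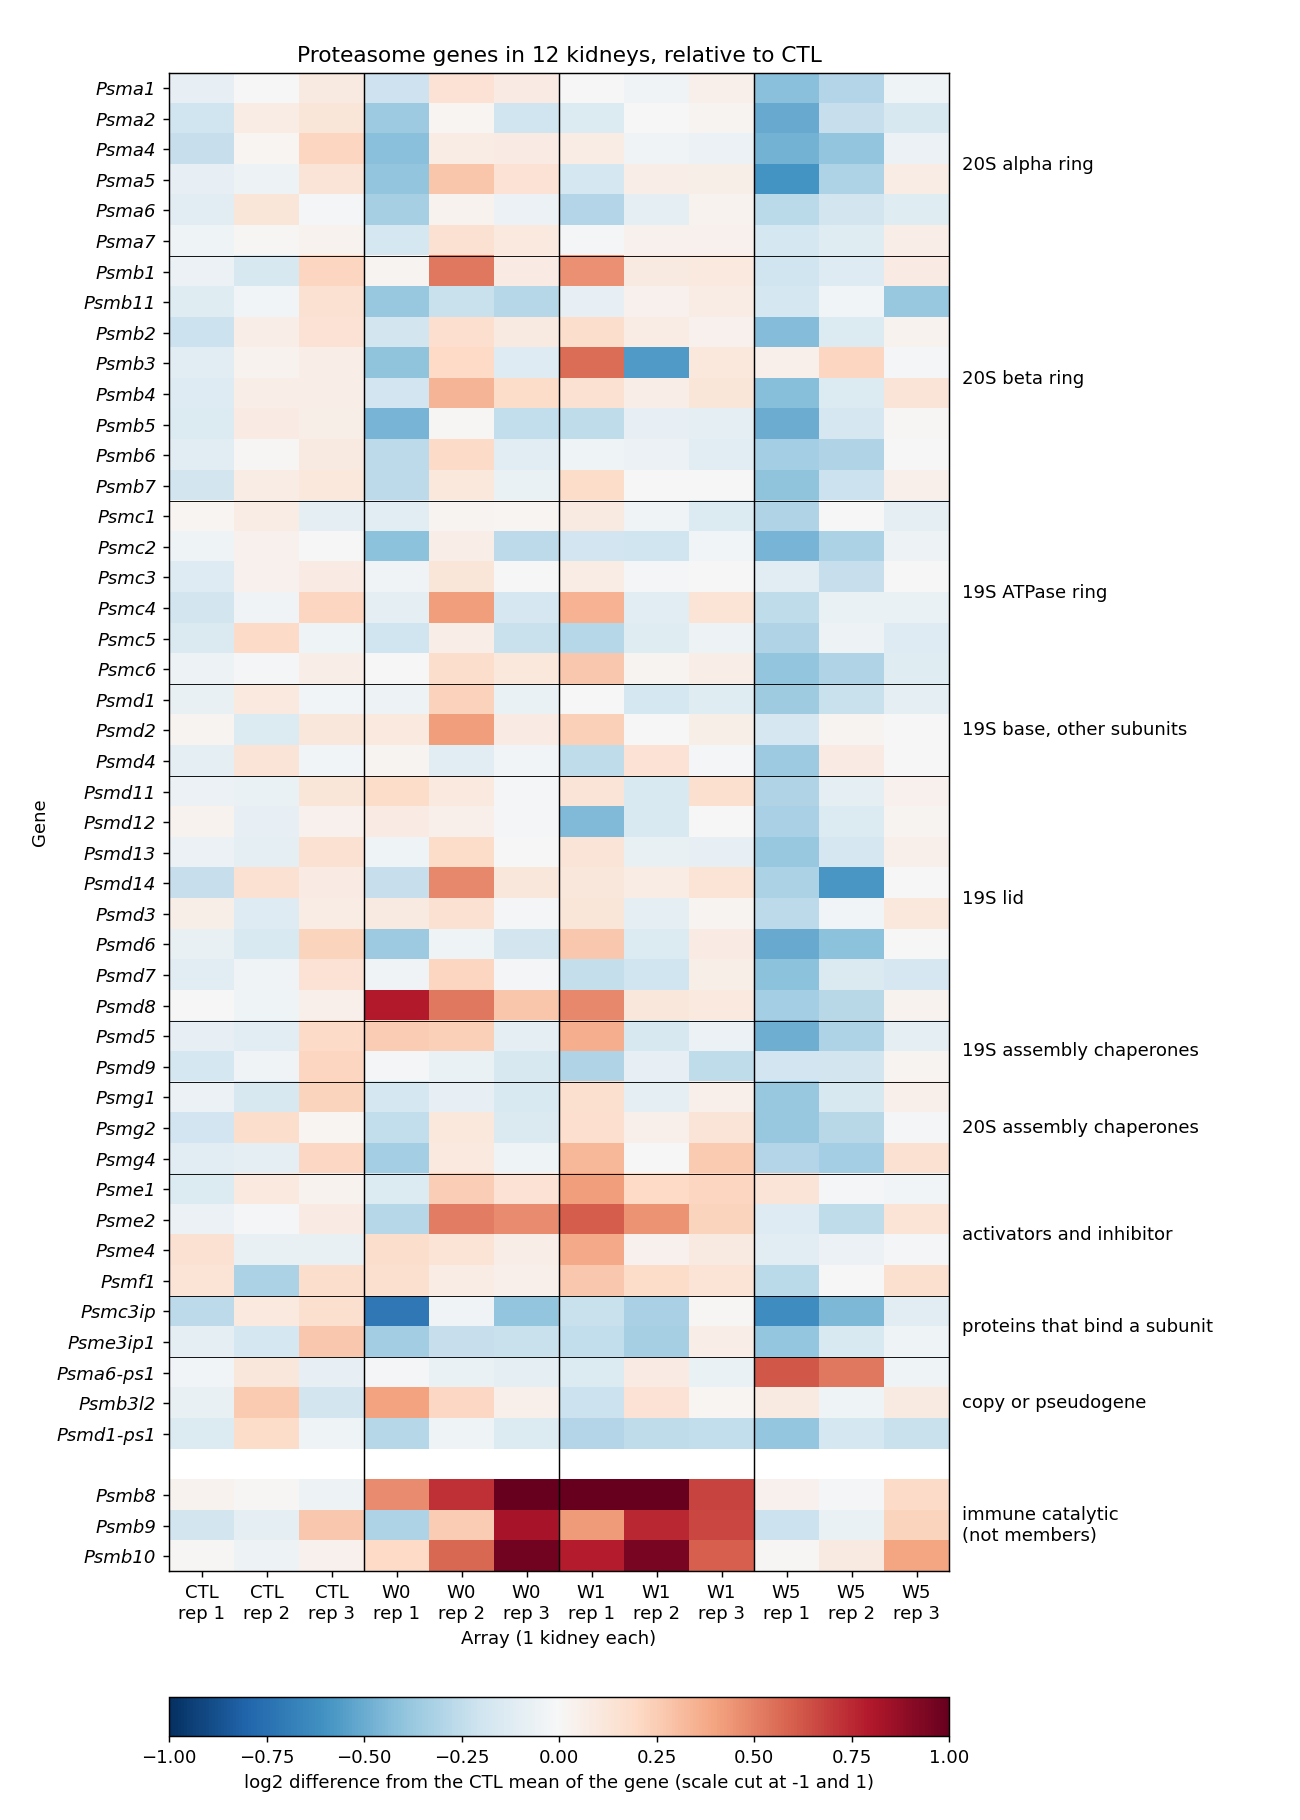
Log2 difference of each array from the gene's CTL mean for the 45 members by sub-complex and, below, the immune subunits Psmb8, Psmb9 and Psmb10 (colour scale cut at -1 and 1; columns are 12 arrays, 3 per group). Columns rather than groups share a colour: W5 replicates 1 and 2 are mostly blue, with medians of -0.34 and -0.17, and W0 replicate 2 mostly red, with a median of 0.12, while the immune subunits are red across most of W0 and W1.

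Most members varied together from array to array, also within groups. Across the 12 arrays the median Pearson correlation between members was 0.44, and it was 0.44 after the group means were removed. For the 40 genes without copies and binding proteins it was 0.51, with 730 of 780 pairs above 0. The points share arrays, RNA preparation and normalization, so the correlation is given as a description. Psmb2, Psmb7 and Psma1 followed the median of the other members most closely (r = 0.94 for each), and Psmd8 followed it loosely (r = 0.39). Psma6-ps1 ran against it (r = -0.80), with its highest levels of 3.36 and 3.26 in W5 replicates 1 and 2. The SD of a member over the 12 arrays had a median of 0.179, against 0.198 for all genes. Psmd8 (0.328), Psme2 (0.309) and Psmb3 (0.290) had the largest SDs. The SD of Psmb3 came mainly from W1, where its levels were 7.03, 5.91 and 6.58, and RefSeq lists 7 pseudogenes of it.

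Complexes outside the proteasome showed part of the same array pattern. The CCT chaperonin, which folds actin and tubulin, had 8 genes measured, none passing in any comparison, and array medians in W5 of -0.17, -0.20 and -0.04. The COP9 signalosome, which resembles the 19S lid in its make-up, had 9 genes measured, none passing, and array medians in W5 of -0.18, -0.17 and -0.05. In both lists replicates 1 and 2 of W5 were lower than replicate 3, as for the proteasome genes. Across the 12 arrays the median correlation between genes was 0.75 in the CCT list and 0.47 in the COP9 list, beside 0.51 for the 40 proteasome genes. After the group means were removed these values were 0.65, 0.42 and 0.48. The same correlation was not computed for all genes. The methods state that RNA quality was checked, but RNA quality values and the processing day of each array are not given in the sources used here, and their part in the pattern was not tested.

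**Figure D3:**
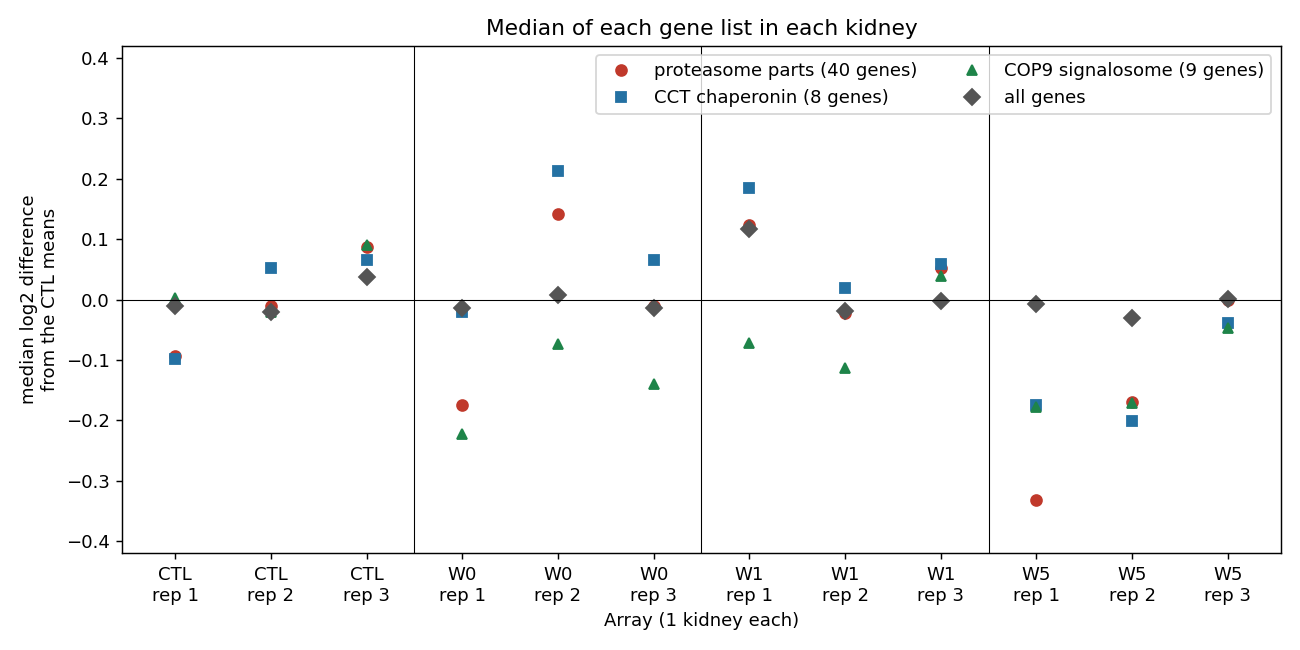
Median log2 difference from the CTL means in each of the 12 arrays for the 40 proteasome parts, the CCT chaperonin (8 genes), the COP9 signalosome (9 genes) and all 18166 genes. W5 replicates 1 and 2 are below 0 in all 3 complexes and near 0 for all genes, and W5 replicate 3 is close to 0 in all.

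Of the immune catalytic subunits, left out by the rule, Psmb8 was higher than in CTL at W0 and W1 and Psmb10 at W1. Psmb8 was at 6.38, 6.36 and 6.30 in CTL, at 6.82, 7.07 and 7.69 in W0 and at 7.52, 7.60 and 7.02 in W1. In W5 it was at 6.39, 6.33 and 6.54. Every W0 and W1 array was above every CTL array, and the W5 arrays lay within the CTL range or just above it. The difference from CTL was 0.85 in W0 (adjusted p = 0.0145 by limma) and 1.03 in W1 (adjusted p = 0.0144), and it fell by 0.77 from W0 to W5 (adjusted p = 0.0360). Without W0 replicate 3 the W0 difference of Psmb8 was 0.60 and did not pass (adjusted p = 0.0519), and the W1 difference did not pass without W1 replicate 1 (0.97, adjusted p = 0.0576) or W1 replicate 2 (0.92, adjusted p = 0.0741). Psmb10 was at 6.81, 6.74 and 6.84 in CTL, 6.99, 7.37 and 7.76 in W0 and 7.58, 7.75 and 7.39 in W1, with no overlap with CTL. It passed in W1 (0.78, adjusted p = 0.0275) and not in W0 (0.58, adjusted p = 0.0519), and with single arrays left out its adjusted p in W1 reached 0.121, and the call was lost without any 1 of the CTL arrays or W1 replicate 1 or 2. Psmb9 had W0 levels of 7.02, 7.58 and 8.16, which overlapped the CTL levels of 7.15, 7.24 and 7.60, and did not pass in either group (adjusted p = 0.584 and 0.188).

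**Figure D4:**
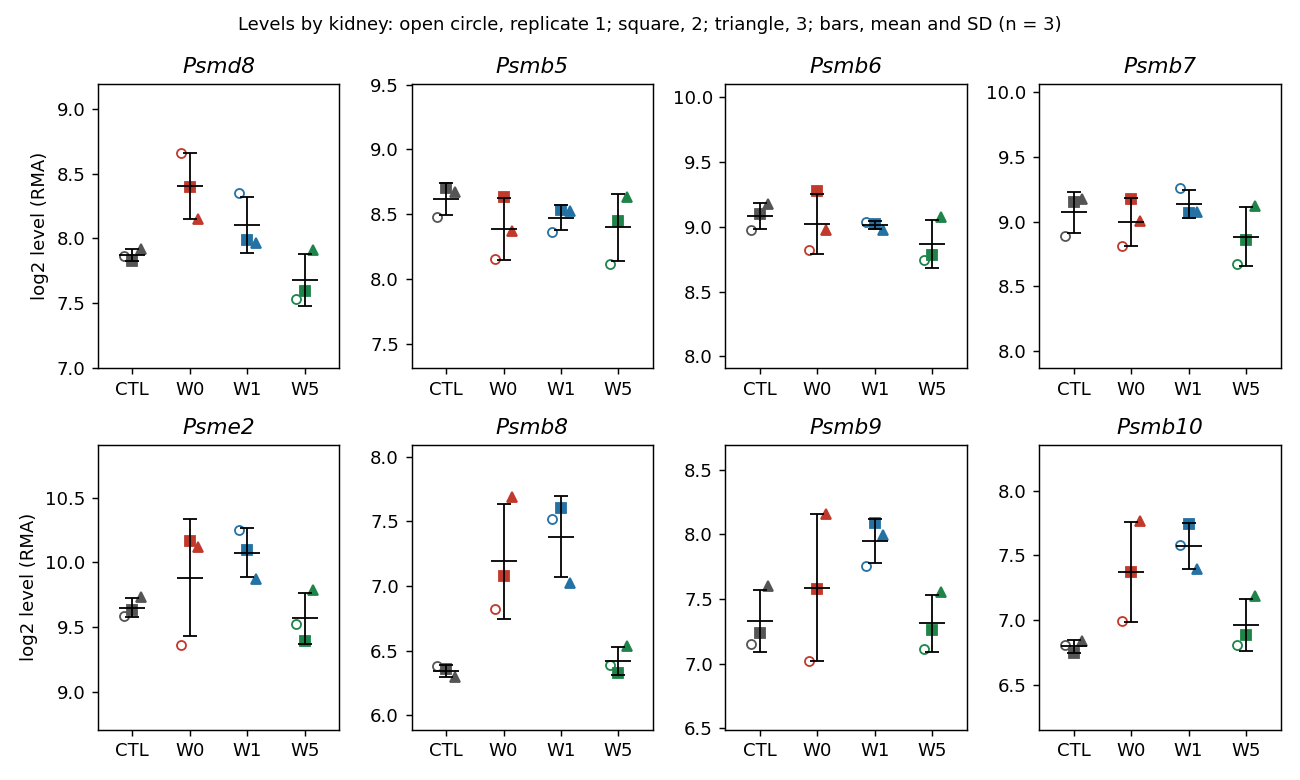
Log2 level of 8 genes in each of the 12 kidneys (marker shape gives the replicate; horizontal bar and whiskers, mean and SD, n = 3 per group), each axis spanning the same range of log2 units. Psmd8 is highest in W0, Psmb5, Psmb6 and Psmb7 overlap between all groups, and Psmb8 and Psmb10 lie above CTL in all W0 and W1 arrays.

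Each immune subunit was also set against its constitutive counterpart within each array. The log2 difference Psmb8 minus Psmb5 changed by 1.08 from CTL to W0, Psmb10 minus Psmb7 by 0.65 and Psmb9 minus Psmb6 by 0.32. In the first 2 pairs all 3 W0 arrays were above all 3 CTL arrays, and in the last 1 of 3 was. An exact two-sided permutation test gave p = 0.1 for the first 2 pairs, which is the smallest p that 3 against 3 can give, and p = 0.5 for the last (adjusted over the 3 pairs, 0.15, 0.15 and 0.5). In W1 all 3 arrays of each pair were above CTL, with changes of 1.18, 0.72 and 0.68 in the same order (exact permutation p = 0.1 each). In W5 the changes were 0.29, 0.36 and 0.20 for Psmb8 minus Psmb5, Psmb10 minus Psmb7 and Psmb9 minus Psmb6. The constitutive subunits Psmb5, Psmb7 and Psmb6 themselves differed from CTL in W5 by -0.22, -0.19 and -0.21. The immune subunits Psmb8, Psmb10 and Psmb9 differed by 0.07, 0.17 and -0.02, and none of these genes passed the limma test. All 3 W5 arrays were above CTL for Psmb10 minus Psmb7 (exact permutation p = 0.1), and 2 of 3 were for the other pairs (exact permutation p = 0.2 each; 0.2 for all after adjustment over the 3 pairs). The macrophage marker levels given above were higher in the same groups, and leukocytes carry immune subunits, but their part in these values was not tested.

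Some genes that act around the proteasome passed the test in W0. Of the 10 partners measured under other symbols, 2 passed (9.40% of all genes) and both were higher (4.99% of all genes): Zfand5, a ubiquitin-binding activator of the proteasome, by 0.60 (adjusted p = 0.0225 by limma), and Zfand2a, an arsenite-inducible protein that binds the 19S particle, by 0.78 (adjusted p = 0.0191). Zfand2a was at 5.32, 5.19 and 5.47 in CTL and 6.67, 5.897 and 5.75 in W0, with no overlap. The subunits with other symbols, Adrm1 and Sem1, and the core maturation factor Pomp did not pass: Pomp was at 9.76, 9.74 and 9.82 in CTL and 9.60, 9.86 and 9.69 in W0. None of the 12 genes of ubiquitin, E1 enzymes and shuttle factors that were measured passed in any comparison.

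Of the 9 measured genes known to act on proteasome gene transcription, 2 were higher in W0, against 4.99% of all genes. Nfe2l2, encoding NRF2, rose from 9.86, 9.80 and 9.96 in CTL to 10.32, 10.31 and 10.28 in W0 (0.43, adjusted p = 0.0177 by limma). Stat3, which in cultured cells has been linked to Psmb5 transcription, rose by 0.89 (adjusted p = 0.000555). Nfe2l1, encoding NRF1, was at 7.69, 7.36 and 7.60 in CTL and 7.84, 7.79 and 7.79 in W0, without passing. Known NRF2 targets did not move in 1 direction: of 9 measured, 4 passed (9.40% of all genes). Hmox1 (heme oxygenase) was higher by 3.10, and Gclc and Gclm (glutathione synthesis) and Me1 (malic enzyme) were lower, by -1.21, -0.92 and -1.08. Proximal tubule markers were lower in the same group, and the part of this in the levels of Gclc, Gclm and Me1 was not tested. The other 5 targets, Nqo1 among them, did not pass in W0. In W1 against CTL 1 of the 9 targets passed (3.02% of all genes), Me1, lower by -1.09 (adjusted p = 0.0498 by limma). Its adjusted p in W1 reached 0.195 with single arrays left out. With single arrays left out Stat3, Hmox1 and Gclc passed in W0 each time, whereas the highest adjusted p was 0.0708 for Nfe2l2, 0.0764 for Zfand2a, 0.0823 for Zfand5, 0.0886 for Gclm and 0.102 for Me1. The calls of Nfe2l2 and Zfand2a were lost without CTL replicate 1 or 2, that of Zfand5 without CTL replicate 1 or 2 or W0 replicate 1, that of Gclm without CTL replicate 1 or 3 or W0 replicate 2 or 3, and that of Me1 without CTL replicate 2 or 3 or W0 replicate 3. In W5 none of these genes passed against CTL, as no gene of the arrays did.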

How the data were processed

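The authors hybridized amplified kidney cDNA on Affymetrix rat gene arrays and normalized the fluorescence with RMA (named without a version in the submitters' processing notes). The deposited log2 values of 20944 probesets were used unchanged, and every column belongs to a sample. Probesets with several symbols (575) or none (1859) were left out. Of the 290 genes with more than 1 probeset the one with the highest mean was kept, and current gene identifiers were found for 18393 probesets.

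Groups (3 rats each, as labelled) were compared with limma 3.58.1 (R 4.3.3) in 1 fit of all 12 arrays, with Benjamini-Hochberg adjustment over 18166 genes and a threshold of 0.05. The labels and methods name the animal as the source of each array, with no batch given. Genes were named by rule if called in a comparison or if highest or lowest of W0 against CTL in their sub-complex. The catalytic and immune subunits and called genes of the other lists were also named by rule. Others, such as Psmd14, Pomp, Nfe2l1 and Psmb3, were named outside this rule. Members, lists and rules were chosen with earlier results of these data known. The code was tested on simulated data. Alternatives were another scaling, an intensity trend, probeset means, a filter on low genes, a replicate block, only the groups compared, and leaving out arrays. Python 3.11.15 was used for the rest.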

Additional observations from a re-analysis of the deposited data

Results flagged for a closer look

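Differences between the injured (W0) and the recovered kidneys (W5) passed the limma test for 1 of the 45 members and 7 of the 59 other pathway genes measured, against 5.04% of all genes. Among the members Psmd8 was lower in W5 by -0.72 on the log2 scale (adjusted p = 0.0144). Of the genes around them, Psmb8 differed by -0.77 (adjusted p = 0.0360), Zfand5 by -0.59 (adjusted p = 0.0382), Nfe2l2 by -0.39 (adjusted p = 0.0482), Stat3 by -0.79 (adjusted p = 0.00223) and Hmox1 by -2.92 (adjusted p = 0.00648). Gclc was higher in W5 than in W0 by 1.18 (adjusted p = 0.0245) and Gclm by 0.89 (adjusted p = 0.0399). With single arrays left out Stat3 and Hmox1 passed each time, and the other calls were lost in part: the highest adjusted p was 0.0733 for Psmd8, 0.141 for Psmb8, 0.156 for Zfand5, 0.165 for Nfe2l2, 0.0945 for Gclc and 0.139 for Gclm. Psmd8 was lost without W5 replicate 1 or 2. The other 5 calls were lost without any 1 of the W5 arrays. Among the arrays of the other groups, Psmb8 was also lost without CTL replicate 1 or 2 or W0 replicate 2 or 3, Zfand5 without CTL replicate 1, W0 replicate 1 or 3 or W1 replicate 2 or 3, and Gclc without W0 replicate 2 or 3. Gclm was also lost without any 1 of the CTL arrays, W0 replicate 2 or 3 or W1 replicate 3, and Nfe2l2 without any 1 of the CTL or W0 arrays or W1 replicate 2 or 3.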

How the results depend on the processing

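The median difference of the members in W5 against CTL was -0.09 after a repeated quantile normalization, and it lay between -0.27 and -0.08 with single arrays left out. The members called in W0 against CTL numbered 0 with arrays centred on their medians (Psmd8 0.50, adjusted p = 0.0502) and 0 with only the 2 groups compared, and 0 to 1 with single arrays left out. In W5 against W0 they numbered 0 with only the 2 groups compared, 2 without W0 replicate 1 and W1 replicate 1 (Psmd8 and Psme2), and 0 to 2 with single arrays left out: Psme2 joined without W0 replicate 1 and Psma6-ps1 without W5 replicate 3, and Psmd8 was lost without W5 replicate 1 or 2. Members differing over the 4 groups numbered 0 without W0 replicate 1 and W1 replicate 1, and 0 to 2 with single arrays left out. The sign of W0 against CTL reversed for Psma7 (-0.0071 with centred arrays, -0.040 to 0.12 with single arrays left out), for Psmb6 and Psmb7 (0.043 and 0.018 without W0 replicate 1 and W1 replicate 1; -0.18 to 0.043 and -0.17 to 0.018 with single arrays left out), and, with single arrays left out, for Psmb9 (-0.028 to 0.54), Psmd4 (-0.086 to 0.028) and Psmd9 (-0.17 to 0.028). The cause was not tested. Over all genes the number called in W0 against CTL ran from 1070 to 1946, in W1 against CTL from 165 to 745, in W1 against W0 from 19 to 169, in W5 against W0 from 407 to 1075 and in W5 against W1 from 3 to 152, and in W5 against CTL it was 0 or 1. Of the other pathway genes, 9 passed in W0, 3 with only the 2 groups compared and 5 to 9 with single arrays left out. The labels do not say whether a replicate number pairs the arrays. After the group means were removed, same-numbered arrays of different groups correlated at -0.04 to 0.17, over 0.1 in 7 of 18 pairs. Arrays with different numbers were not compared, so these values do not decide whether the numbers pair the arrays. With the replicate number as a block 1 member was called in W0 against CTL and 1 in W5 against W0, Psmd8 in both (adjusted p = 0.0496 and 0.0199), Psmb10 passed in W0 (adjusted p = 0.0466), and Psmb8 and Nfe2l2 in W5 against W0 did not (adjusted p = 0.0533 and 0.0593), nor did Me1 in W1 against CTL (adjusted p = 0.0673). The signals of Psma6-ps1, Psmb3l2 and Psmb11 were low on these arrays, which limits what their values show.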

Other observations

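Psma3, the alpha ring subunit missing from the comparisons, was measured by a probeset that also carries the symbol Psma3l. Its log2 level was 8.82, 9.15 and 9.29 in CTL, 9.08, 9.28 and 9.27 in W0, 9.18, 9.15 and 9.25 in W1, and 8.77, 8.93 and 9.14 in W5. W5 replicate 1 was the lowest of the 12 arrays for it, as for 31 of the 45 members.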
